A study of Mus musculus with 4 samples.

Results

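The genes described here are 44 ribosome biogenesis and nucleolar factors of the mouse, taken by name from a list of genes of that function, which was drawn up with earlier results of these data known. All 44 symbols matched 1 of the 37311 gene identifiers in the count files, and all 44 were among the 13809 genes tested. The cells were J1 embryonic stem cells (129S4/SvJae) on gelatin without feeders, in serum with leukaemia inhibitory factor. They had been infected with short hairpins against Eif4a3 (sheIF4a3-2 and sheIF4a3-3), selected in puromycin at 1 µg/mL for 3 days and harvested on day 4.5. Ribosome protected fragments (RPF), the stretches of mRNA that a ribosome shields from nuclease, were sequenced beside total RNA from the same kind of cells, with 2 biological replicates of each.

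Both groups carried the knockdown, the puromycin selection and a cycloheximide treatment of 0.1 mg/mL for 1 min, so by the labels they differed in the RNA fraction alone. Cells with normal eIF4A3 were not analysed here, and no value below measures an effect of the knockdown. The replicate that received each hairpin and the pairing of RPF with total RNA by lysate are not named in the sources at hand. The ratio below is log2 of RPF over total RNA, which sets the ribosome footprints on a gene's mRNA against the amount of that mRNA. A level is in CPM, counts relative to library size scaled by trimmed mean of M-values (TMM) factors, and is given as mean ± SD of 2 libraries. Levels of cell type markers are an exception, in CPM on library size alone.

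Ribosomes are built in the nucleolus. RNA polymerase I transcribes the long precursor of the ribosomal RNAs, small nucleolar ribonucleoproteins (snoRNPs) modify and help to cut it, and separate sets of assembly factors fold and trim the precursors of the small and the large subunit. Many of these factors are essential in growing cells, and embryonic stem cells are known for prominent nucleoli and for high demand on ribosome production.

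The sequence around the start codon is shown for the members with the highest and lowest ratios and for members of different roles, because translation starts there. The lines hold the 10 bases before the start codon, the codon and the base after it, from GENCODE M21 transcripts (GRCm38). Capitals mark the base 3 before the codon, the ATG and the base after it, the positions at which a purine and a G are known as favourable context.
Nop2: ttcagttAtcATGG
Npm1: cctccacCtcATGG
Fbl: gaacgcaGtaATGA
Nop14: agtgaatGtcATGG
Ncl: atccgccAccATGG
Pes1: acgtggaGctATGG
Nob1: gacagccAacATGG
Gar1: cggagagAgcATGT
Dkc1: gcagttcAagATGG
Polr1a: gactcggAagATGC
Ubtf: cagctggAgaATGA
Imp4: ggcgctcAtcATGC
Rrn3: ttcaggcCgaATGG
A purine stood 3 bases before the codon in 41 of the 44 members (93.2%), against 86.6% of 12341 coding genes tested. The members without it were Npm1, Polr1e and Rrn3, with ratios of 1.26, 0.41 and 0.03. Both favourable bases were present in 24 members (54.5%), against 46.0% of coding genes. The median ratio was 1.02 over these 24 members and 0.59 over the other 20. Over coding genes the same split gave 0.06 (5673 genes) and -0.03 (6668 genes). These shares and medians are descriptions and were not tested.

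The libraries held 9434987 and 7615277 gene counts for RPF replicates 1 and 2, and 8969965 and 8218020 for total RNA replicates 1 and 2. Eif4a3, the targeted helicase of the exon junction complex, had 1640 and 1325 RPF counts and 1229 and 975 total RNA counts. Marker levels are in CPM on library size alone, without TMM factors, so they are not on the scale of the members' levels. All 10 pluripotency markers reached 10 CPM in total RNA, with summed levels of 4767 to 5614 CPM over the 4 libraries. Of the fibroblast markers 0 of 10 did so, with sums of 12.7 to 16.1 CPM and Dcn at 0 in every library. Trophectoderm markers (2 of 10) summed to 80.0 and 82.1 CPM in RPF and 46.6 and 53.1 CPM in total RNA. Those that reached 10 CPM were Krt8 (23.7 CPM in total RNA) and Krt18 (13.6 CPM), while Cdx2 was at 1 to 9 counts. Primitive endoderm markers (5 of 10) summed to 877 and 911 CPM in RPF and 608 and 577 CPM in total RNA. Most of that sum came from the basement membrane genes Lama1 (292 CPM in total RNA) and Col4a1 (248 CPM). Pdgfra was at 16.8 CPM. The defining factors were lower, with Gata4 at 10.5 CPM, Gata6 just below it, Sox17 at 3.15 CPM and Foxa2 at 0.862 CPM. Mesoderm and neuroectoderm markers (2 of 9 with an identifier) summed to 50.0 to 68.9 CPM. The part of such cells in the members' ratios was not tested. Bulk libraries cannot tell the number of such cells from the amount of RNA that each holds.

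The ribosome biogenesis factors were carried mostly at higher levels among footprints than in total RNA. By edgeR's quasi-likelihood test with Benjamini-Hochberg adjustment over all genes, 30 of 44 (68.2%) were higher in RPF, 0 were lower and 14 did not pass. Of all genes tested, 20.5% were higher and 21.2% were lower. Before adjustment, at p of 0.05, 37 members were higher and 0 lower, against 25% and 26.2% of all genes. DESeq2 called 31 members higher and 0 lower after adjustment, against 18.8% and 16.8% of all genes. The members' median ratio was 0.80, with quartiles of 0.47 and 1.04, against -0.02 over all genes with quartiles of -0.67 and 0.56. All 44 ratios were above 0 with TMM scaling, from 0.03 for Rrn3 to 1.27 for Nop2. Scaling by library size alone lowered the median over all genes to -0.46, and 10 of the 44 ratios then fell below 0. The members' median was 0.36 on that scale, 0.82 above the median of all genes, and 17 members were called higher, against 8.86% of all genes. Without total RNA replicate 2, the number called higher was also 17, against 12% of all genes.

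Members were abundant transcripts, and calls of higher, but not of lower, were more frequent among abundant genes than among all genes. The 4795 genes at or above the lowest mean level of a member (41.0 CPM, Npm3) had a median ratio of 0.22, with 36.3% called higher and 20.5% lower. The members' median level was 124.6 CPM in total RNA and 229 CPM in RPF, while all genes had a median of 21.9 CPM in total RNA. Counts per library ranged from 282 to 38655, so every member was measured far above the counting floor. Both RPF libraries lay above both total RNA libraries in 41 members, and the fractions overlapped in Rrn3, Utp20 and Imp4. Over all genes, both RPF libraries lay above in 34.9% and both below in 37.9%.

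**Figure D1:**
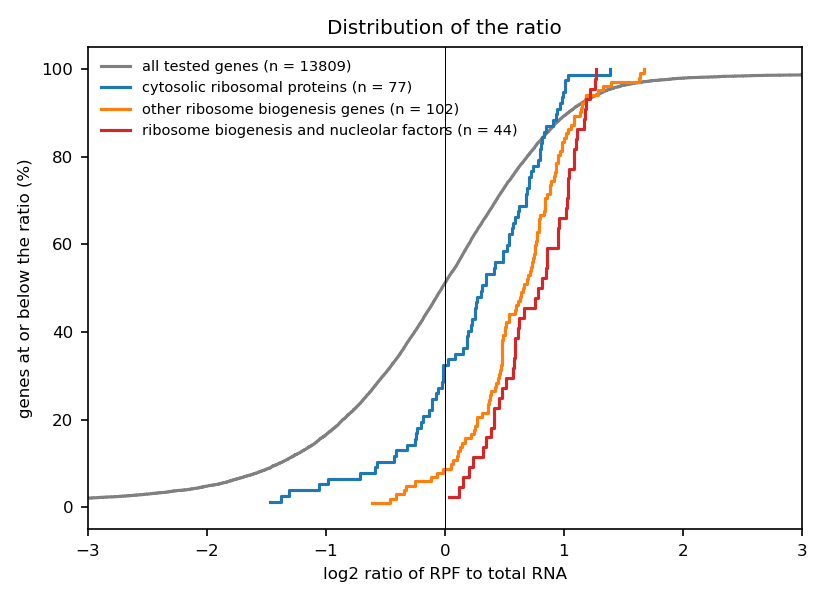
Cumulative share of genes (vertical, percent) at or below each ratio (horizontal, log2 RPF over total RNA) for all 13809 genes tested, 77 cytosolic ribosomal proteins, 102 other ribosome biogenesis genes and the 44 members; the axis leaves out genes beyond its ends. The members' median (0.80) lies to the right of the median of all genes (-0.02), and all members lie above 0 with TMM scaling.

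**Figure D2:**
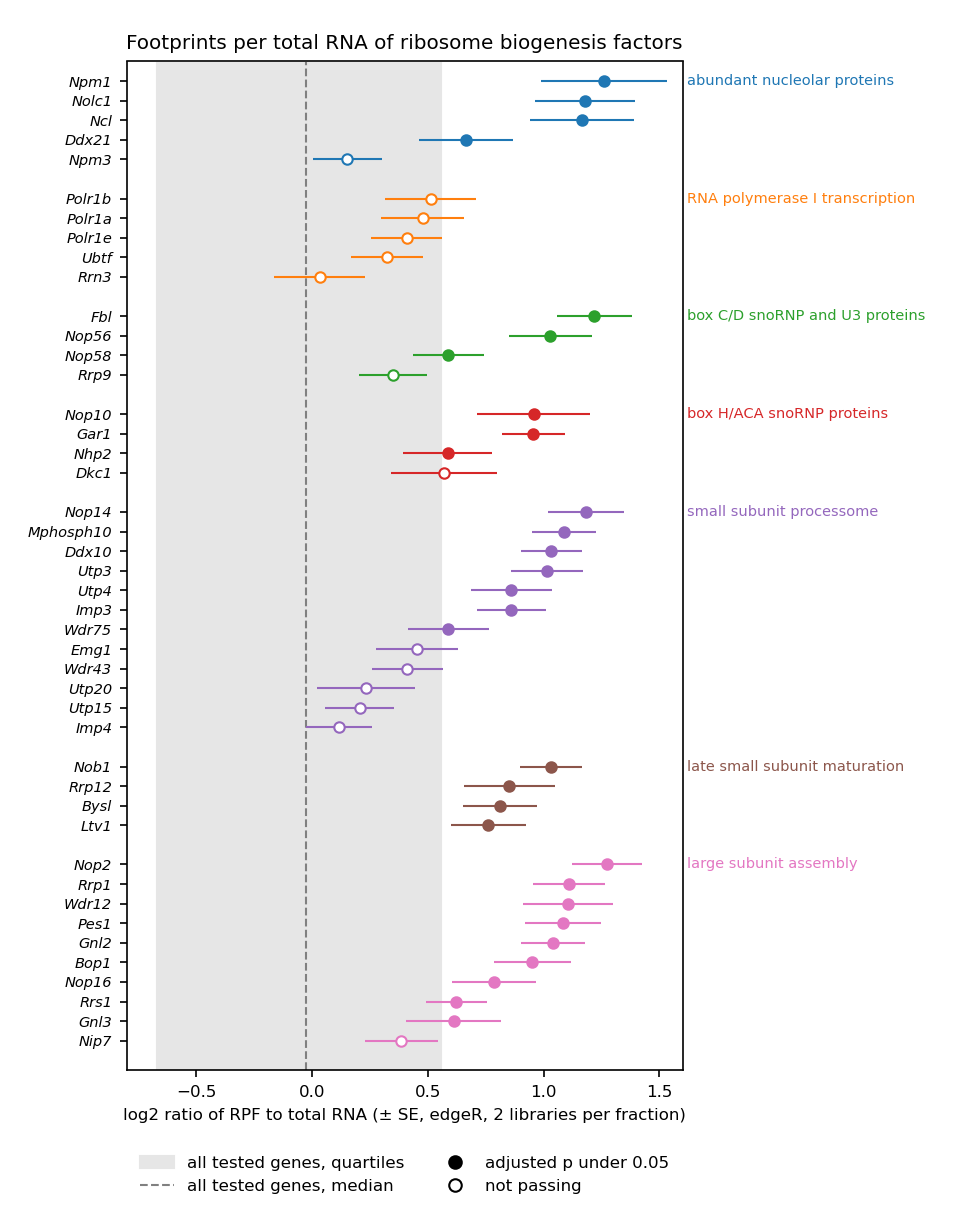
Ratio (log2 RPF over total RNA) for each of the 44 members, grouped by role, with bars of 1 SE from edgeR's fit of 2 libraries per fraction and filled points for adjusted p under 0.05; the dashed line and grey band are the median and quartiles of all genes tested. RNA polymerase I factors lie between 0.03 and 0.51, and 9 of 10 large subunit factors pass as higher.

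Multifunctional proteins of the nucleolus, most of them abundant, gave some of the highest ratios of the set. Of 5 such members, 4 passed as higher and the median ratio was 1.17. Npm1, nucleophosmin, the histone and ribosomal protein chaperone of the granular nucleolus, had 38655 and 25091 RPF counts and 20553 and 15495 total RNA counts. Its levels were 4328 ± 947 CPM in RPF and 1806 ± 292 CPM in total RNA, a ratio of 1.26 ± 0.27 (SE, adjusted p = 0.0099). Ncl, nucleolin, which binds nascent ribosomal RNA and chromatin of the ribosomal genes, had 24788 and 19855 counts in RPF and 15293 and 11818 in total RNA. The RPF libraries were above the total RNA libraries for both genes, and the Ncl ratio was 1.17 ± 0.23 (adjusted p = 0.00679). Nolc1, the chaperone of snoRNPs also known as Nopp140, was at 620.3 ± 88.1 against 273.7 ± 64.8 CPM, a ratio of 1.18 ± 0.22 (adjusted p = 0.00544). Ddx21, an RNA helicase that links polymerase I transcription with rRNA processing, was higher by less (0.66 ± 0.20, adjusted p = 0.0363).

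Npm3, a small relative of nucleophosmin, was the member of this group that did not pass. It had 349 and 282 RPF counts and 405 and 368 total RNA counts, and its ratio was 0.15 ± 0.15 (adjusted p = 0.442). The related chaperones Npm1 and Npm3 thus stood far apart, at 2.40-fold and 1.11-fold, although the difference between them was not tested. Reads of these genes can be shared with related copies, since 30.4% of the 28-base stretches of Npm1 transcripts and 35.2% of those of Npm3 occur in another annotated gene. Without total RNA replicate 2, the median ratio of the 5 was 0.95, with 1.02 for Ncl, 1.10 for Npm1 and 0.49 for Ddx21. Ncl and Npm1 each lost their call in 1 of 15 alternative settings, and Ddx21 lost its call in 6.

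RNA polymerase I factors had low ratios within the set, and 0 of 5 passed. The median ratio was 0.41, and 3 of the 5 had an unadjusted p under 0.05 by edgeR, against 2 by DESeq2, which also passed 0 after adjustment. Polr1a, the largest catalytic subunit, had 1398 and 963 RPF counts and 1291 and 1010 total RNA counts. Its level was 160.6 ± 28.5 CPM in RPF and 115 ± 15.7 CPM in total RNA, a ratio of 0.48 ± 0.18 (adjusted p = 0.0682). The second subunit of the core, Polr1b, had the highest value of the group with 1562 and 1003 against 1367 and 1069 counts (0.51 ± 0.20, adjusted p = 0.072). Polr1e, a peripheral subunit, had a ratio of 0.41 ± 0.15 (adjusted p = 0.069). These 3 subunits lay just outside the adjusted threshold, each with both RPF libraries above both total RNA libraries.

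Ubtf, the architectural factor that keeps ribosomal gene repeats open, had 2656 and 2715 RPF counts and 3075 and 2805 total RNA counts. Its levels of 369.6 ± 37.1 and 295 ± 8.18 CPM gave a ratio of 0.32 ± 0.15 (adjusted p = 0.133). Rrn3, the initiation factor that recruits the polymerase, had the lowest ratio of all members. Its counts were 2613 and 1815 in RPF and 3389 and 2490 in total RNA. In CPM it was at 338 and 265 in RPF and at 332 and 257 in total RNA, so the fractions overlapped and nearly coincided (0.03 ± 0.20, adjusted p = 0.905). After the joint correction for coding share of the exons and their length 2 of the 5 factors passed as higher, as did 2 without RPF replicate 2 and 1 without RPF replicate 1. With scaling by library size alone the group's median was -0.02.

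The low values were not shared by every gene of the polymerase I machinery outside the 44. Named after their values were seen, Polr1c (0.94 ± 0.15, adjusted p = 0.00376) and Tcof1, the treacle protein of nucleolar transcription (0.89 ± 0.18, adjusted p = 0.00803), were higher in RPF. So were the promoter selectivity factor subunits Taf1b (0.60 ± 0.15, adjusted p = 0.0192) and Taf1d (0.54 ± 0.14, adjusted p = 0.022). Taf1c (0.38 ± 0.15, adjusted p = 0.0801) and the shared small subunit Polr1d (-0.25 ± 0.14, adjusted p = 0.181) did not pass.

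The box C/D snoRNPs place methyl groups on ribosomal RNA, and the related U3 particle guides early cleavages. Of 4 protein members, 3 passed as higher, with a median ratio of 0.81. Fbl, fibrillarin, the methyltransferase of the particle, had 3241 and 2528 RPF counts and 1860 and 1515 total RNA counts. It reached 394 ± 35.7 CPM in RPF and 169 ± 18.2 CPM in total RNA, 2.33-fold higher (1.22 ± 0.16, adjusted p = 0.00187). Nop56 (1.03 ± 0.18, adjusted p = 0.00472) and Nop58 (0.59 ± 0.15, adjusted p = 0.0209), the paired scaffold proteins, were both higher. Rrp9, the U3-specific protein, had 1177 and 968 against 1276 and 1020 counts and did not pass (0.35 ± 0.15, adjusted p = 0.0988). Its RPF libraries lay above its total RNA libraries after scaling, at 147 ± 7.81 against 115 ± 13.9 CPM. Without total RNA replicate 2, 1 of the 4 passed (adjusted p = 0.0583 for Nop56 and 0.248 for Nop58). The joint correction raised the ratio of Nop58 to 1.06 and lowered that of Rrp9 to 0.14.

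Box H/ACA snoRNPs convert uridines of ribosomal RNA to pseudouridine, and their 4 core proteins are all members. Here too 3 of 4 passed, with a median of 0.77. Gar1 had 747 and 595 RPF counts and 480 and 461 total RNA counts, a ratio of 0.96 ± 0.14 (adjusted p = 0.00229). Nop10, the smallest of the 4 proteins, had 983 and 585 RPF counts and 660 and 434 total RNA counts. It had nearly the same ratio with a wider error (0.96 ± 0.24, adjusted p = 0.019), and it showed the widest gap between replicates of any member. Nhp2, which binds the RNA, passed narrowly (0.59 ± 0.19, adjusted p = 0.0462). Dkc1, dyskerin, the pseudouridine synthase, had 2549 and 1591 RPF counts and 2234 and 1546 total RNA counts. Its levels were 281 ± 69.0 and 189 ± 41.8 CPM without overlap, and its ratio of 0.57 ± 0.23 did not pass (adjusted p = 0.0825). Dkc1 and Nhp2 therefore fell on either side of the threshold with ratios that differ by far less than their errors. Dkc1 passed with DESeq2 (adjusted p = 0.0437), without RPF replicate 2 (0.82, adjusted p = 0.000644) and without total RNA replicate 1 (0.81, adjusted p = 0.0492), and Nhp2 lost its call in 9 of 15 alternative settings. The joint correction gave 1.6 for Nop10 and 0.59 for Gar1.

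**Figure D3:**
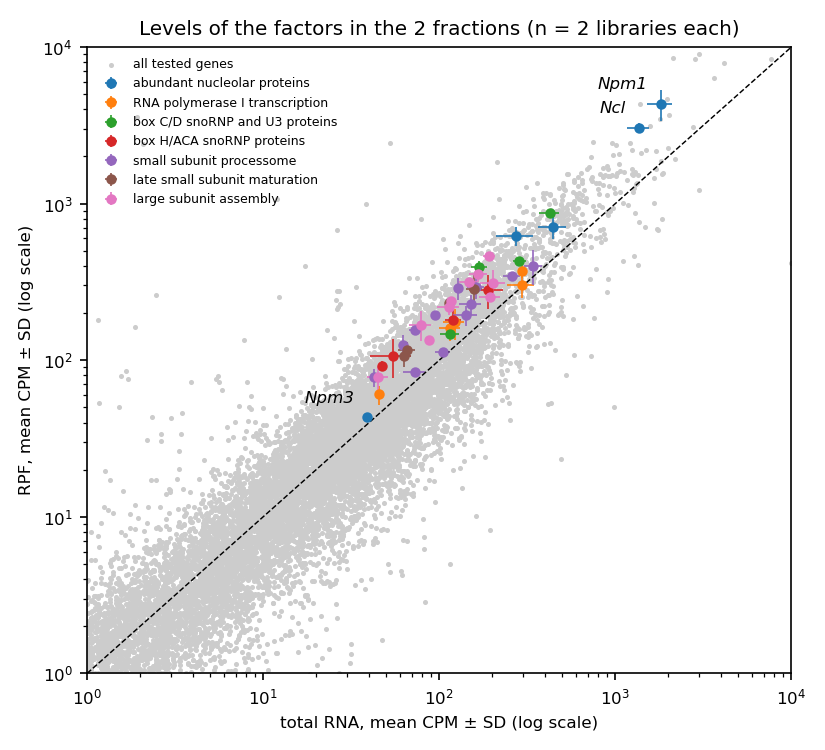
Mean level of each gene in RPF (vertical) against total RNA (horizontal), in CPM on log axes, with members coloured by role and bars of 1 SD (n = 2 libraries) over all genes tested in grey; genes beyond the ends of the axes are not drawn. Members lie along or above the diagonal, from Npm3 (38.8 CPM in total RNA) to Npm1 (1806 CPM).

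The small subunit processome, the large early particle on the growing precursor, supplied 12 members. Of these 7 passed as higher and 5 did not, and the median ratio was 0.72. Nop14 had the highest ratio, with 1989 and 2200 RPF counts and 1328 and 1205 total RNA counts. It was at 289 ± 45.0 against 127 ± 4.0 CPM (1.18 ± 0.16, adjusted p = 0.00208). Mphosph10 (1.09 ± 0.14, adjusted p = 0.00163) and Imp3 (0.86 ± 0.15, adjusted p = 0.00449) passed as well, while their partner Imp4 had one of the lowest uncorrected values of the set. These 3 proteins form a complex that binds U3. Imp4 had 911 and 747 RPF counts against 1145 and 942 in total RNA, which came to 118 and 109 CPM in RPF and 112 and 97.2 CPM in total RNA. The fractions overlapped, and the ratio was 0.12 ± 0.14 (adjusted p = 0.55). After the joint correction for coding share and length Imp4 passed as higher (0.65, adjusted p = 0.0118) and stood above Imp3 (0.52, adjusted p = 0.0305), so the order of these partners depends on that correction. With the coding share alone corrected, Imp4 was at 0.54 (adjusted p = 0.0225) and Imp3 at 0.68. No test compared the members of this complex with each other.

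The UTP proteins of the processome varied in the same way. Utp3 (1.01 ± 0.16, adjusted p = 0.00303), Utp4 (0.86 ± 0.18, adjusted p = 0.0082) and Wdr75 (0.59 ± 0.17, adjusted p = 0.0321) were higher in RPF. Utp4 and Wdr75 belong, with Utp15 and Wdr43, to the subcomplex that binds the precursor first and that also aids its transcription. Utp15 (0.21 ± 0.15, adjusted p = 0.306) and Wdr43 (0.41 ± 0.16, adjusted p = 0.0698) did not pass. Utp20, a very large scaffold protein, had 473 and 330 CPM in RPF and 370 and 313 CPM in total RNA, so that its fractions overlapped (0.23 ± 0.21, adjusted p = 0.404). Of the enzymes, the helicase Ddx10 was higher with little spread (194 ± 1.79 against 94.6 ± 1.82 CPM, ratio 1.03 ± 0.13, adjusted p = 0.00166). The methyltransferase Emg1 did not pass (0.45 ± 0.18, adjusted p = 0.0762), but it did after the joint correction (0.83, adjusted p = 0.0106), after correction for the coding share alone (0.79, adjusted p = 0.0122) and without RPF replicate 2 (0.61, adjusted p = 0.00808). The joint correction lowered Utp3 to 0.58 and raised Utp15 to 0.42 and Utp20 to 0.41, and Wdr75 lost its call in 7 of 15 alternative settings.

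Late maturation of the small subunit was represented by 4 members, and all 4 passed as higher, with a median of 0.83. Nob1, the endonuclease that makes the final cut of the small subunit RNA, had 1784 and 1588 RPF counts and 1160 and 1087 total RNA counts. Its levels, 231 ± 0.608 and 113 ± 0.981 CPM, were among the most closely replicated of the set (1.03 ± 0.13, adjusted p = 0.00171). Rrp12, an export factor, had a ratio of 0.85 ± 0.20 (adjusted p = 0.0131). Bysl, bystin, was at 0.81 ± 0.16 (adjusted p = 0.0071). Ltv1, which is released late from the precursor particle, had the lowest value of the group with 739 and 811 RPF counts against 688 and 568 total RNA counts (0.76 ± 0.16, adjusted p = 0.00933). Exons that overlap another gene make up 9.37% of Bysl, the highest share of any member. Next were Nop56 (8.12%), Emg1 (7.21%), Npm3 (7.08%) and Nop14 (5.27%), which belong to other role groups. The strand setting of the counting is not stated in the sources at hand. Without total RNA replicate 2, 2 of the 4 passed, and 1 did with library size only or against a fold of 1.5. Ltv1 did not pass after the joint correction (0.40, adjusted p = 0.089).

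Large subunit factors passed most often among the larger groups, 9 of 10, with a median ratio of 1.00. Nop2, an RNA methyltransferase known as a marker of proliferating cells, had 3579 and 3187 RPF counts and 2063 and 1761 total RNA counts. Its 464 ± 1.34 against 192 ± 14.3 CPM made it 2.42-fold higher, the highest ratio of the 44 (1.27 ± 0.15, adjusted p = 0.00134). Pes1 (1.08 ± 0.16, adjusted p = 0.0029), Bop1 (0.95 ± 0.17, adjusted p = 0.00474) and Wdr12 (1.11 ± 0.19, adjusted p = 0.0048) form the PeBoW complex, which is required for large subunit rRNA processing. All 3 subunits were higher in RPF, with ratios from 0.95 to 1.11. Rrp1 (1.11 ± 0.16, adjusted p = 0.00227) and the GTPase Gnl2 (1.04 ± 0.14, adjusted p = 0.00186) were also more than 2-fold higher.

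Smaller ratios in the large subunit group belonged to Nop16 (0.79 ± 0.18, adjusted p = 0.0131), Rrs1 (0.62 ± 0.13, adjusted p = 0.00938) and Gnl3 (0.61 ± 0.21, adjusted p = 0.0492). Rrs1 helps to bring the 5S ribonucleoprotein into the precursor. Gnl3, nucleostemin, is a GTPase known from stem cells and shuttles between nucleolus and nucleoplasm. It had 2778 and 1794 counts in RPF and 2316 and 1739 in total RNA, and its call was lost in 9 of 15 alternative settings. Nip7 was the member that did not pass, with 2029 and 1687 against 2183 and 1698 counts (0.39 ± 0.16, adjusted p = 0.0891). Its RPF level was 254 ± 11.6 CPM and its total RNA level 194.5 ± 27.2 CPM, without overlap. After the joint correction Nip7 passed (0.65, adjusted p = 0.0169) and Rrs1 did not (0.23, adjusted p = 0.201), and the ratio of Wdr12 was 1.68. Without total RNA replicate 2, 6 of the 10 large subunit factors passed.

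Replicates of the members were close within each fraction, and they also leaned one way. No member differed by more than 2-fold between replicates, and the widest gap was 0.58 on the log2 scale (Nop10 in RPF). Replicate 1 was the higher one for 34 of 44 members in RPF and for 39 in total RNA, with median differences of 0.17 and 0.24. Of 13547 genes compared, 49.6% and 48.7% were higher in replicate 1, with medians near 0, and 33.7% were so in both fractions, against 33 of 44 members. On library size alone the members' medians were 0.03 in RPF and 0.18 in total RNA, against -0.14 and -0.06 over all genes. On that scale replicate 1 was higher for 24 members in RPF, 37 in total RNA and 22 in both, against 24.5% of all genes in both. The part of the hairpin in this gap was not tested, since the sources at hand do not tie a hairpin to a replicate.

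**Figure D4:**
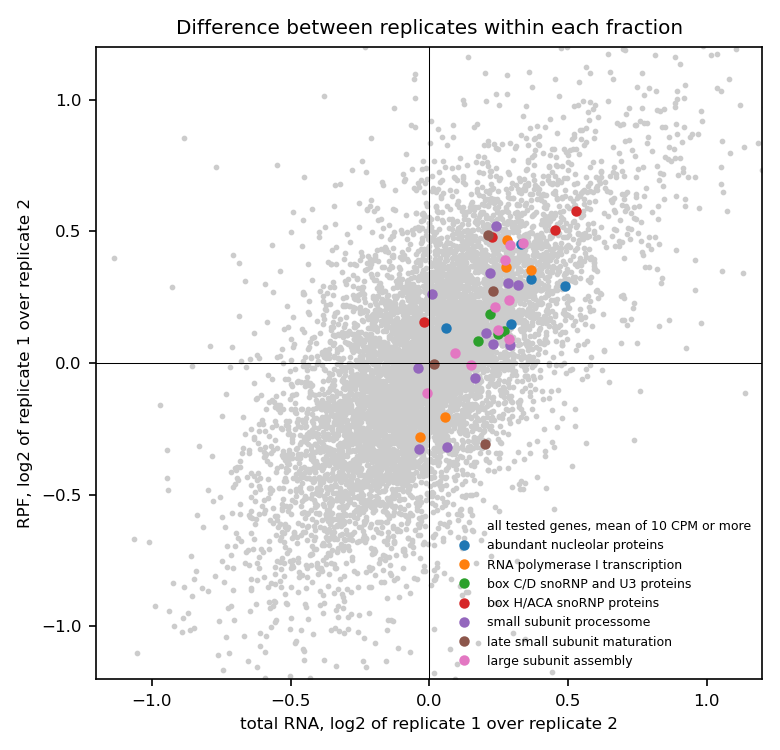
Log2 difference of replicate 1 over replicate 2 in total RNA (horizontal) and in RPF (vertical), for members coloured by role over all genes averaging 10 CPM or more in grey; genes beyond the ends of the axes are not drawn. Members lie mostly at the upper right: 33 of 44 were higher in replicate 1 in both fractions with TMM scaling, against 33.7% of all genes, and 22 with library size only.

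Per kilobase of annotated mRNA, the total RNA level ranged widely among members. The median was 50.3 CPM per kilobase, against 8.36 over coding genes tested. Npm1 was highest at 1106 CPM per kilobase, followed by Nop56 (226.7), Nop58 (167), Ncl (166) and Fbl (141). Neighbours in that order, Nop58 and Ncl, differed by less than the spread between their libraries. The counts are per gene, while the divisor is a single mRNA. Annotated exons of Nop56, Nop58 and Fbl cover 4099, 10758 and 4209 bases, against divisors of 1877, 1713 and 1197 bases. Their high places therefore depend on that choice of divisor. Ncl was divided by a long annotated transcript of 8202 bases, so its place depends on that transcript. Its total RNA level before that division, 1358 CPM, was exceeded only by that of Npm1. Wdr12 (7.84), Polr1a (12.5) and Polr1e (15.2) were lowest, though Wdr12 is counted over a long annotated transcript of 10012 bases. Footprint level per kilobase of coding sequence put Npm1 first at 4941, then Ncl at 1438 and Nop10 at 553, with Polr1a lowest at 31.2.

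Correlations of the ratio with transcript features were low among the members. Across the 44 members, the ratio correlated with the coding share of the exons at Pearson's r = 0.26 (Spearman's rho = 0.23) and with log2 mRNA length at r = -0.16 (rho = -0.18). These are correlations across genes of the same 4 libraries, and genes are not independent replicates. Over 12639 coding genes, r was 0.18 for coding share and -0.30 for mRNA length (rho = 0.21 and -0.37). The members' median mRNA was 2544 bases, against 3066 over coding genes tested, and their median coding share was 44.4%, against 35.8%. After the joint correction for both the coding share and the length of the exons, 33 members passed as higher, against 22% of all genes, and 28 of the 30 calls were kept. The members' median ratio fell from 0.80 to 0.68 with that correction, while the median of all genes rose from -0.02 to 0.08. The members' median was then 0.61 above that of all genes, against 0.82 before it.

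Among 102 other ribosome biogenesis genes chosen by function, 68 (66.7%) were higher in RPF, 2 (1.96%) were lower and 32 did not pass. Their median ratio was 0.66. The 3 highest were the large subunit factors Ppan (1.68 ± 0.14, adjusted p = 0.000633) and Rpf2 (1.64 ± 0.20, adjusted p = 0.00139) and the small subunit nuclease family protein Fcf1 (1.63 ± 0.13, adjusted p = 0.000559). Ppan had 2726 and 2333 RPF counts against 1153 and 1003 total RNA counts. The lower genes were Mdn1, the giant ATPase of large subunit assembly, with 3045 and 2235 against 5957 and 5020 counts (-0.61 ± 0.17, adjusted p = 0.0274), and Rsl24d1 (-0.46 ± 0.13, adjusted p = 0.0297). Ddx51, a helicase, had the next lowest ratio among those that passed (0.43 ± 0.14, adjusted p = 0.0422). On library size alone 28 were higher and 9 lower, against 8.86% and 35.9% of all genes.

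The protein components of the finished cytosolic ribosome are given beside the assembly factors. Of 77 ribosomal protein genes tested, 23 (29.9%) were higher, 6 (7.79%) were lower and 48 did not pass, and their median ratio was 0.31. Of all genes 20.5% were higher, and of genes at the members' levels 36.3%. The difference between the assembly factors and the ribosomal proteins was not tested.

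The E-box CACGTG, the letters bound by Myc and related factors, was searched on both strands (it reads the same on each) in RefSeq promoter windows of GRCm38.p6, from 250 bases before to 50 after the gene start. It stood in 8 of 38 members with a window (21.1%) and in 19.0% of 84 other ribosome biogenesis genes. The share was 12.1% of 10191 genes tested and 8.09% of all 27025 genes with a window. The members with it were Imp4, Ltv1, Nop2, Pes1, Rrn3, Utp20, Utp4 and Wdr43, and Rrn3 had 2 matches. The stretches around matches upstream of the start are shown for the members with the highest and the lowest ratio, with the match in capitals, from chr6:125131803-125131848 and chr16:13780631-13780676 on the plus strand.
Nop2: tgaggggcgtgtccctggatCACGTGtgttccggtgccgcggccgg
Rrn3: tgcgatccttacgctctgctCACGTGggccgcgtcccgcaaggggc
The E-box was thus present at both ends of the range of ratios, 1.27 and 0.03. A match is a description of the letters and says nothing of binding in these cells.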

How the data were processed

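Each library came as a table of unnormalised counts deposited by the authors. Per the submitters' processing notes, mm9 was the build, and HTSeq 0.11.2, edgeR 3.26.8, TopHat2 2.1.1 and Bowtie 1.2.3 were the tools. Annotation release, strand setting and the joining of the 4 runs of each RPF library are not stated in the sources at hand. Tallies outside genes were left out: reads without a feature were 5.95% and 6.66% in RPF and 23.4% and 26.2% in total RNA, ambiguous reads 4.96% and 8.58% against 0.755% and 0.719%, and reads not unique 21.0% and 20.6% against 16.6% and 16.5%.

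Symbols and transcripts came from GENCODE M21 (GRCm38) by Ensembl identifier, which named 32621 identifiers (87.4%). Fractions were compared by quasi-likelihood (edgeR 4.0.16, limma 3.58.1, R 4.3.3), with fraction as the one term and all 4 libraries, filterByExpr (minimum count 10, minimum total 15), TMM factors (0.821 and 0.902 for RPF, 1.14 and 1.18 for total RNA) and two-sided tests with Benjamini-Hochberg adjustment at 0.05. SE is the ratio's size over the square root of F. TMM assumes that most genes do not differ between fractions, so ratios are relative to the other genes and not absolute. Counting error alone is small at these depths. The p-values rest on the spread between 2 libraries per fraction, with each gene's variance moderated by a trend over all genes tested. Reads carry no molecular identifiers.

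Counts in every library are given for the extremes of each role group and for Ncl, Npm1, Fbl, Dkc1, Polr1a and Ubtf; of the other ribosome biogenesis genes, the 3 highest and 3 lowest ratios among those passing at 10 CPM or more are named. The members, roles and lists were chosen with earlier results of these data known. Other tests were DESeq2 1.42.0, glmTreat at a fold of 1.5 and limma-voom. Other settings were library size only, size factors of DESeq2, and TMM from coding genes without the cytosolic ribosomal protein genes. Further settings were testing without the count filter, keeping genes averaging 10 CPM or more, and a replicate block. Loess corrections (span 0.5) for coding share and exon length, and leaving out each library, were also run. Leaving out members with at least 20% of 28-base stretches in another gene was added after seeing the data.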

Additional observations from a re-analysis of the deposited data

How the results depend on the processing

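The members were lower in 0 calls in every setting. Against 30 called higher, library size only gave 17, glmTreat at a fold of 1.5 gave 17, and leaving out 1 library gave 17 (without total RNA replicate 2) to 34 (without RPF replicate 2). Over all genes these settings called 8.86%, 8.36%, 12% and 22.9% higher. The members' median of 0.80 became 0.36 with library size only and ran from 0.63 to 0.91 with 1 library left out. After the joint correction for coding share and exon length it was 0.68, or 0.61 above the median of all genes, against 0.82 in the main fit. The 68 other ribosome biogenesis genes called higher became 28 with library size only, 24 with glmTreat, and 38 to 71 with 1 library left out. The 2 called lower became 9 with library size only, 4 at a mean of at least 10 CPM, 1 with DESeq2, 0 with glmTreat, 6 with the replicate block, 1 after the joint correction for coding share of the exons and their length, and 0 to 3 with 1 library left out. The cause of these changes was not tested.

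With library size only, ratios below 0 were those of Npm3 (-0.28), Polr1e (-0.016), Ubtf (-0.10), Rrn3 (-0.40), Rrp9 (-0.082), Utp15 (-0.23), Utp20 (-0.21), Wdr43 (-0.019), Imp4 (-0.32) and Nip7 (-0.045), none of which had passed. That scaling changed the share of calls that were higher over all genes from 49.2% to 19.8% (1223 higher, 4961 lower). The ratio of Rrn3 was also below 0 without the count filter (-0.0094), at a mean of at least 10 CPM (-0.048) and after correction for coding share (-0.071), and ran from -0.14 to 0.22 with 1 library left out. Utp20 ran from -0.037 to 0.49.

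In all 15 alternatives, 14 of the 30 calls were kept: Nolc1, Fbl, Gar1, Utp3, Nop14, Mphosph10, Ddx10, Nob1, Pes1, Bop1, Wdr12, Nop2, Rrp1 and Gnl2. Nhp2 and Gnl3 each lost theirs in 9. Without the 5 members with much shared sequence (Pes1, Npm3, Npm1, Nop56 and Fbl), 26 of 39 were higher and the median was 0.76.

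Replicate numbers are not said to pair the libraries. Deviations of same-numbered libraries correlated across genes at r = 0.61 (9013 genes), and with the replicate block 40 members and 86 other ribosome biogenesis genes were called higher, against 30.8% of all genes (31.6% lower). The 10 members that it added were Polr1a, Polr1b, Polr1e, Ubtf, Rrp9, Dkc1, Utp20, Wdr43, Emg1 and Nip7. The lowest count of a member in a library was 282, so no member was near the counting floor.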
